A study of Mus musculus with 127 samples.

Results

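The genes described here set whether a red cell precursor divides again or leaves the cell cycle. They are 10 genes chosen by symbol, each read from its transcript row of highest mean RPKM: the D-type cyclins Ccnd3 and Ccnd2, the kinases Cdk6 and Cdk4, the inhibitors Cdkn1b, Cdkn2c and Cdkn2d, the transcription factors E2f2 and E2f4, and Rb1. All 10 were among the 24320 gene symbols of the expression table, and 7 of them were among the 2540 genes whose mean level over all cells reached a log2(RPKM + 1) of 1. Ccnd2, Cdk6 and Cdkn2c lay below that level and are given as shares of cells. RPKM is the read number scaled by transcript length and sequencing depth, so its levels can be set side by side between genes. An RPKM of 1 or more in a cell is called detection.

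The material was single cells from the marrow of C57BL/6J mice, all with the label erythroblast, a nucleated red cell precursor. There were 48 cells in which Flvcr was deleted, 48 wild-type cells and 31 cells from wild-type mice given erythropoietin (EPO), the hormone that keeps red cell precursors alive and dividing. Flvcr encodes a surface protein known as a heme exporter. Cells were caught on a microfluidic C1 chip, imaged for the red cell antigen Ter119, and given class labels lettered A to D. Median Ter119 went up from A to D in each group, but some single EPO-treated cells lay out of that order. SMART-Seq chemistry amplified the cDNA. The labels split the 18 Flvcr-deleted class A cells further into 9 with the suffix a and 9 with the suffix d, which are given apart where class A is described. The sources used here do not give the means or cell type of the Flvcr deletion, the EPO dose or the age of the mice. The labels tie no cell to an animal, so a group is treated as 1 sample. No difference between groups therefore carries a p-value, and SDs describe the spread among the cells alone. Each group had chips of its own, so chip and group cannot be told apart.

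D-type cyclins bind the kinases CDK4 and CDK6, and these complexes phosphorylate the RB protein, which then releases E2F factors that switch on the genes of S phase. INK4 proteins, p18 from Cdkn2c and p19 from Cdkn2d, block those kinases, and p27 from Cdkn1b blocks cyclin-CDK2 complexes. In erythroid cells cyclin D3 is known to set the number of terminal divisions and with it red cell size, and E2F2, E2F4 and RB are known to be needed for orderly exit from the cycle and for enucleation.

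The start regions of the genes that the results turn on most are shown to give their sequence context, from 250 bases before to 50 bases after the annotated start. They are RefSeq sequences of the build GRCm38.p6, and 7 of the 10 genes had an entry, all but Ccnd2, E2f4 and Rb1. Capitals mark matches, on either strand, to 4 kinds of motif: that of GATA factors (AGATAA, with TGATAA as its variant), E2F (TTTCCCGC, TTTGGCGC, TTTCGCGC or TTTGCCGC), STAT (TTCNNNGAA) and KLF (CCNCNCCC). The Ccnd3 window at chr17:47593217-47593516, plus strand, holds the start of the transcript whose row was used. For the Cdkn2d and E2f2 windows this was not established.
Ccnd3: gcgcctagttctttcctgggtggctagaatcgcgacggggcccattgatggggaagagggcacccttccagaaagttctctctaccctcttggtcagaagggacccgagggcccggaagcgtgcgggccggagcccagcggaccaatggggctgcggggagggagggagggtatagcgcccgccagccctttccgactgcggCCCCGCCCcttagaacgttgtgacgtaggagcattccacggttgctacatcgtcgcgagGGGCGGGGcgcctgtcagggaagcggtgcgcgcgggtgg
Cdkn2d, at chr9:21291160-21291459 on the minus strand: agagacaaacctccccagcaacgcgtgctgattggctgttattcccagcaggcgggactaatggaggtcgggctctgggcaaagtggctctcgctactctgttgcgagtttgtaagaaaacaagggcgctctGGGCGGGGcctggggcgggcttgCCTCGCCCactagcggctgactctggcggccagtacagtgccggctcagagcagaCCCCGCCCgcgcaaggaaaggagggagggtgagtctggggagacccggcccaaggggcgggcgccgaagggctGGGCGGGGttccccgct
E2f2, at chr4:136172024-136172323 on the plus strand, 1 of 2 starts in that table: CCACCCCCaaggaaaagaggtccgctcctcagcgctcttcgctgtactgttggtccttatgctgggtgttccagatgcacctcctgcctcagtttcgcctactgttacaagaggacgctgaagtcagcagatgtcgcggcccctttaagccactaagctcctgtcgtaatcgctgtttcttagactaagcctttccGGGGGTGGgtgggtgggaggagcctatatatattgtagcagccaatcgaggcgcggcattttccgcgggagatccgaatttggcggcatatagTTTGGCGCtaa
Of all 32851 windows of this length, 18.6% held a GATA match, 2.26% an E2F match, 8.30% a STAT match and 49.5% a KLF match. In the windows of the 7 genes no GATA or STAT match was found, and the E2F match TTTGGCGC stood in the E2f2 window alone, from base 39 after its start. The capitals in the Ccnd3 and Cdkn2d windows are KLF matches, which nearly as many windows hold as lack. A match is a run of letters and not a measured binding site.

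The groups differed in how much of the transcriptome was seen in a cell, and this went with several of the genes below. In classes B to D the median number of detected genes was 1196.5 (range 645 to 3452) after Flvcr deletion, 2199 (1151 to 3871) in the wild type and 1385 (638 to 3982) after EPO. Reads per cell, estimated roughly from the value of a single read, had medians of 3.55 M and 4.07 M in the first 2 groups, and they were not estimated in EPO-treated cells. Globin transcripts took a median of 90.7%, 69.6% and 64.9% of the summed RPKM. The Flvcr1 transcript (row Mfsd7b, its older symbol) was seen in 0 of the Flvcr-deleted cells, 1 of 48 wild-type and 0 of 31 EPO-treated cells, so its level cannot check the labels. In classes B to D all 96 cells had at least 3 of 14 erythroid markers. So had 4 of 6 wild-type, 5 of 7 EPO-treated and 17 of 18 Flvcr-deleted class A cells, so this mark does not part the classes. Of the 14 erythroid markers 11 were detected in some wild-type class A cell, all but Alas2, Slc4a1 and Epb4.2. The log2 of their summed RPKM had a median of 8.00 in wild-type class A and 16.3 in wild-type class B cells. At least 3 of 15 granulocyte and monocyte markers were found in 3 of 6 wild-type, 3 of 7 EPO-treated and 1 of 18 Flvcr-deleted class A cells. In classes B to D that was so in 1 of 42 wild-type cells and in none of the 30 Flvcr-deleted cells or the 24 from EPO. Group differences were therefore taken within classes B, C and D, averaged with equal weight, and class A is described apart.

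Ccnd3 (NM_007632) was present in nearly every wild-type cell and missing from most Flvcr-deleted cells. Of the wild-type cells in classes B to D, 40 of 42 had it (95.2%, exact 95% interval 83.8% to 99.4%), as had 18 of 24 cells after EPO (75%, 53.3% to 90.2%) and 11 of 30 after Flvcr deletion (36.7%, 19.9% to 56.1%). These intervals, like all those below, cover counting error only, and a lower share of cells can mean fewer transcripts per cell as well as fewer cells with any. Wild-type RPKM ran from 0 over a median of 90.9 to 712, Flvcr-deleted RPKM from 0 over a median of 0 to 319, and EPO-treated RPKM from 0 over a median of 44.7 to 302. The ranges overlapped throughout, and what set the Flvcr-deleted cells apart was the number without the transcript, 17 of 30 at exactly 0 against 1 of 42 wild-type and 2 of 24 EPO-treated cells. Where a Flvcr-deleted cell did hold Ccnd3 the level was often high: 9 of the 11 cells had an RPKM of at least 10, as did 31 wild-type and 16 EPO-treated cells. The 3 Ccnd3 transcript rows of the table had mean RPKM of 80.3 to 81.9, so the level hardly depended on the row used.

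**Figure D1:**
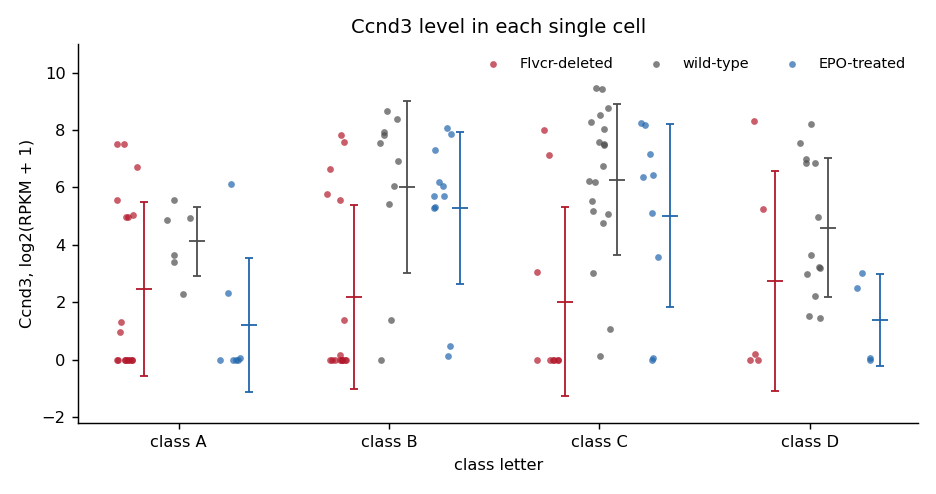
Ccnd3 level as log2(RPKM + 1) in each cell, by class letter (horizontal axis) and group (colour), with the mean and SD over cells beside each set. In classes B and C most wild-type and EPO-treated cells lie above 4 while most Flvcr-deleted cells lie at 0.

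Class by class, mean Ccnd3 log2 levels in wild-type cells were 6.02 ± 3.00 in class B (SD over 10 cells), 6.27 ± 2.63 in class C (19 cells) and 4.59 ± 2.42 in class D (13 cells). In Flvcr-deleted cells they were 2.19 ± 3.20 (16 cells), 2.02 ± 3.30 (9 cells) and 2.75 ± 3.84 (5 cells). In EPO-treated cells they were 5.28 ± 2.65 (11 cells), 5.02 ± 3.18 (9 cells) and 1.39 ± 1.59 (4 cells). EPO-treated means thus lay below wild-type means in each class, least in class B and most in class D. The 4 EPO-treated class D cells had Ccnd3 RPKM of 0.03, 0, 4.65 and 7.11, and all of them lay below the wild-type class D median of 11.6. The 5 Flvcr-deleted class D cells had 0, 0, 0.133, 37.0 and 319, so 3 lay below every one of the 13 wild-type class D cells, whose lowest was 1.72, and 1 lay above them all.

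Ordered over the 12 sets of group and class, the mean Ccnd3 level fell from wild-type C over wild-type B, EPO-treated B and C, and wild-type D and A (4.12 ± 1.21, 6 cells) to Flvcr-deleted D, A, B and C, and last EPO-treated D and A (1.22 ± 2.33, 7 cells). The widest gap between neighbours, 1.37, lay between wild-type A and Flvcr-deleted D. Every neighbouring pair differed by less than the larger of their SDs over cells.

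Averaged over classes B to D, the log2 difference of Ccnd3 between Flvcr-deleted and wild-type cells was -3.31, with -3.83 in class B, -4.25 in class C and -1.84 in class D. A gene is called lower or higher here where that average has a size of at least 1 and the 3 classes share its sign. By this rule 4 of the 7 genes above the level filter were lower in Flvcr-deleted cells and none was higher, but so were 48.3% of all 2540 filtered genes, with 3.74% higher. The median difference of the 7 genes was -1.79 and that of all filtered genes -1.08. The 4 were Ccnd3, Cdkn2d (-2.60), E2f4 (-2.51) and Cdk4 (-1.27), and with the median gene's difference subtracted Ccnd3 stood at -2.23 and Cdk4 at -0.20. Taken as a log2 ratio of mean RPKM the Ccnd3 average was -1.38, and the call was lost since the classes did not share a sign. E2f2 (-1.79), Cdkn1b (0.86) and Rb1 (-0.08) met neither call.

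In EPO-treated cells the same 4 genes were lower than in wild-type cells and none was higher, where 42% of all filtered genes were lower and 0.512% higher. The differences were -1.73 for Ccnd3, -1.93 for Cdkn2d, -1.63 for Cdk4 and -1.48 for E2f4, against a median gene of -0.99. With that median subtracted none of the 4 reached a size of 1. These comparisons share the wild-type cells, so their likeness is no separate result. Cdkn2d carries a further limit in EPO-treated cells. NM_009878 has 2 rows in the table, which were equal in 13 of the 13 EPO-treated cells above 0 and in none of the 37 wild-type and 13 Flvcr-deleted cells above 0, so the EPO-treated columns might have been made differently. With the other of the rows, an alternative chosen after seeing the data, its difference from wild-type was -0.43 in EPO-treated and -2.03 in Flvcr-deleted cells.

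Between Flvcr-deleted and EPO-treated cells 1 gene was lower and 1 higher, where 8.86% of all filtered genes were lower and 7.76% higher. E2f4 was lower, at -1.04, a call that was lost on leaving out any of 24 of the 54 cells. Cdkn1b was higher by 1.16. Leaving out any of 3 cells (Flvcr-deleted class D cell 15, EPO-treated class D cells 14 and 18) lost that call, since the class D difference then changed sign. Ccnd3 stood at -3.09 in class B, -3.00 in class C and 1.36 in class D, an average of -1.58 with no common sign. Without Flvcr-deleted class D cell 38, the cell with an RPKM of 319, the average was -2.04 and the 3 classes shared a sign.

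With class A added to the average the calls against wild-type were Ccnd3, Cdk4 and Cdkn2d in both comparisons, 3 of 7 lower and 0 higher. All filtered genes were then lower in 44.6% and higher in 0.669% for Flvcr-deleted cells, and in 35.2% and 0.236% for EPO-treated cells. Between Flvcr-deleted and EPO-treated cells no gene of the set was then called, against 6.26% lower and 2.44% higher.

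The number of detected genes moved with Ccnd3 and Cdk4. Over wild-type cells of classes B to D Spearman's rho with that number was 0.76 for Ccnd3 and 0.86 for Cdk4 (42 cells, which share their chip), and for Cdk4 it was 0.75 in Flvcr-deleted and 0.72 in EPO-treated cells. In wild-type cells with over 2000 detected genes Ccnd3 was detected in 24 of 24 cells at a mean log2 level of 7.59, and in those with 1000 to 2000 in 16 of 18 at 3.15. Cdk4, the kinase partner, was detected in 19 of the same 24 cells and in 0 of the same 18, with an exact interval that reaches 18.5%. Flvcr-deleted cells held Ccnd3 in 1 of 11 cells with under 1000 detected genes, in 6 of 12 with 1000 to 2000 and in 4 of 7 with more.

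At 1000 to 2000 detected genes Ccnd3 no longer met the lower call against wild-type in either comparison. With Flvcr deleted, the sign of its difference varied with the classes and the range used, so a lower level was neither shown nor excluded. Cells in the range of 1000 to 2000 numbered 12 with Flvcr deleted, 18 of the wild type and 12 after EPO. Mean log2 levels were, in that order, 2.76 ± 3.42, 3.15 ± 2.00 and 4.17 ± 3.00 (SD over cells). The class-averaged difference from wild-type was 0.22 in Flvcr-deleted cells (1.61, -1.47 and 0.53 in classes B, C and D) and 1.35 in EPO-treated cells (3.89, 0.30 and -0.15). The class B values rest on 2 wild-type cells, and without class B the differences were -0.47 and 0.08. In the wider range of 700 to 2500 detected genes, chosen after seeing the data, they were -0.96 and 0.40. Shares of cells with Ccnd3 in the narrower range were 6 of 12 Flvcr-deleted (50%, 21.1% to 78.9%), 16 of 18 wild-type (88.9%, 65.3% to 98.6%) and 9 of 12 EPO-treated cells (75%, 42.8% to 94.5%). The intervals overlapped, which here and below does not show that shares were alike. Wild-type cells in the narrower range had a median RPKM of 7.73 against 90.9 over all their class B to D cells. What sets the number of detected genes in a cell was not tested.

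**Figure D2:**
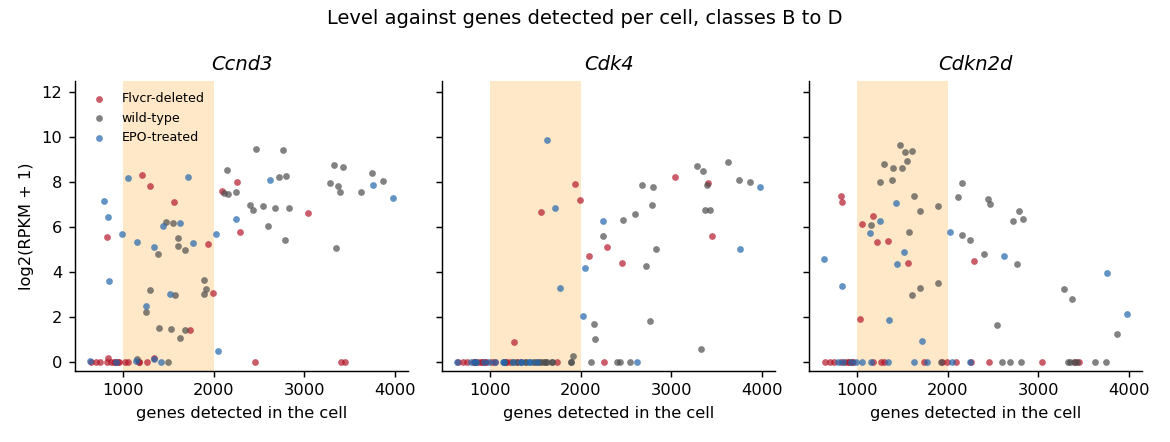
Log2(RPKM + 1) of Ccnd3, Cdk4 and Cdkn2d against the number of detected genes in each class B to D cell, coloured by group, with the range from 1000 to 2000 shaded. Wild-type Ccnd3 and Cdk4 rise with detected genes, while wild-type Cdkn2d is highest inside the shaded range.

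Ccnd2, the other D-type cyclin found in blood cells, was rare. Within classes B to D 5 of 30 cells had it after Flvcr deletion (16.7%, 5.64% to 34.7%), 1 of 42 in the wild type (2.38%, 0.0603% to 12.6%) and 1 of 24 after EPO (4.17%, 0.105% to 21.1%). Ccnd3 lay above Ccnd2 in 41 of 42 wild-type, 22 of 24 EPO-treated and 12 of 30 Flvcr-deleted cells, and in 14 of the last both were at 0. The Flvcr-deleted class B cells with Ccnd2 were exactly 4 cells, numbers 7, 13, 16 and 40, with Ccnd2 RPKM of 2.89, 3.70, 6.49 and 44.7. These same 4 were the only class B to D cells with Hbb-b1, the main adult globin, below a log2 level of 12, at 10.99, 10.11, 8.26 and 8.31, and each had at least 2455 detected genes. All 4 held Cdk4, at 303, 48.0, 251 and 20.3 RPKM, and cells 7 and 16 were the only 2 Flvcr-deleted cells with Cdk6, at 1.37 and 2.59. E2f2 and Cdkn2d were at 0 in all 4, and Ccnd3 was at 0 in all but cell 7 (99.2). Without these cells the Flvcr-deleted difference from wild-type was -3.25 for Ccnd3 and -1.75 for Cdk4, and the calls were the same 4 genes.

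Of the kinase transcripts Cdk4 was detected in a minority of cells, and Cdk6, which many progenitors use, was barely seen. Among class B to D cells Cdk4 was found in 9 of 30 with Flvcr deleted, 19 of 42 wild-type and 8 of 24 EPO-treated ones, and Cdk6 in 2, 0 and 1 of them. In class A Cdk4 was found in 6 of 6 wild-type cells, at 10.7 to 332 RPKM, in 5 of 7 EPO-treated and in 3 of 18 Flvcr-deleted cells. In classes B, C and D it was detected in 7 of 10, 8 of 19 and 4 of 13 wild-type cells and in 6 of 11, 2 of 9 and 0 of 4 EPO-treated cells. The Flvcr-deleted counts were 6 of 16, 2 of 9 and 1 of 5. In cells with 1000 to 2000 detected genes Cdk4 stood above wild-type by 1.88 in Flvcr-deleted cells and by 1.33 in EPO-treated cells, the other direction from that over all cells. It was held there by 3 of 12 cells with Flvcr deleted, 0 of 18 in the wild type and 3 of 12 after EPO. The lower Cdk4 call in Flvcr-deleted cells was also lost on leaving out any of 8 of the 72 cells, all of class D: Flvcr-deleted cells 12, 15, 26 and 38 and wild-type cells 21, 27, 40 and 46.

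Cdkn1b, which encodes p27, was the gene of the set found most often in Flvcr-deleted cells. It was detected in 26 of 30 of them in classes B to D (86.7%, 69.3% to 96.2%), in 33 of 42 cells of the wild type (78.6%, 63.2% to 89.7%) and in 15 of 24 EPO-treated cells (62.5%, 40.6% to 81.2%). RPKM ran from 0 over a median of 10.3 to 107 in Flvcr-deleted cells, from 0 over 9.62 to 48.5 in wild-type cells and from 0 over 3.79 to 66.7 in EPO-treated cells, so the ranges overlapped. The class C values of Flvcr-deleted cells stood highest, 5.72 to 107 RPKM with all 9 cells above 1, a mean log2 level of 4.59 ± 1.42 against 3.08 ± 1.57 in wild-type and 2.05 ± 2.38 in EPO-treated class C cells. Unlike Ccnd3, Cdkn1b was found in 11 of 11 Flvcr-deleted cells with under 1000 detected genes, at a mean log2 level of 5.01, against 6 of 7 cells at 2.57 above 2000. Its Spearman's rho with detected genes was -0.54 with Flvcr deleted, -0.31 in the wild type and 0.34 after EPO. Among cells with 1000 to 2000 detected genes the difference of Flvcr-deleted from wild-type cells was -0.73 and that from EPO-treated cells -0.079.

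Within single cells the order of the p27 and cyclin D3 transcripts went with the group when all cells were counted. Cdkn1b had the higher RPKM in 20 of 30 Flvcr-deleted cells (66.7%, 47.2% to 82.7%), 9 of 42 wild-type cells (21.4%, 10.3% to 36.8%) and 7 of 24 EPO-treated cells (29.2%, 12.6% to 51.1%). Of the Flvcr-deleted cells 17 had Cdkn1b and no Ccnd3 and 2 the reverse, while 2 wild-type cells had Cdkn1b alone and 9 Ccnd3 alone. Among cells with 1000 to 2000 detected genes the counts were 7 of 12 (58.3%, 27.7% to 84.8%), 9 of 18 (50%, 26.0% to 74.0%) and 3 of 12 (25%, 5.49% to 57.2%), and all 3 intervals overlapped.

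**Figure D3:**
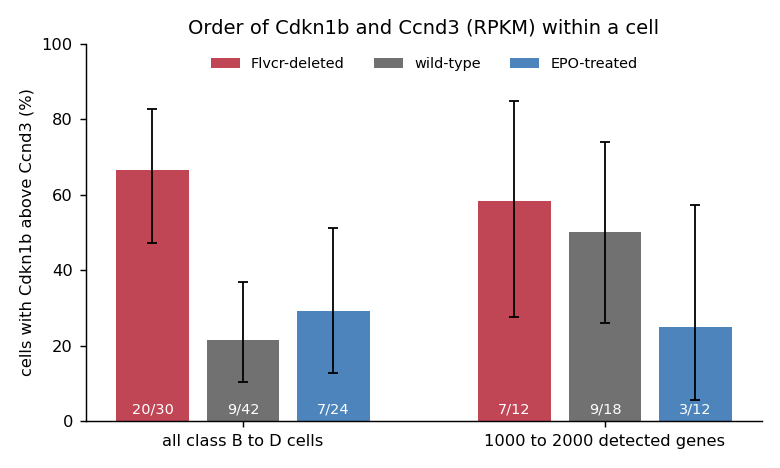
Share of cells (vertical axis, percent) in which the RPKM of Cdkn1b exceeded that of Ccnd3, by group, over all class B to D cells and over those with 1000 to 2000 detected genes; lines are exact 95% intervals and the counts stand in the bars. The wild-type share is 21.4% over all cells and 50% in the narrower range, and the Flvcr-deleted shares are 66.7% and 58.3%.

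On the row used, Cdkn2d, which encodes the CDK4 and CDK6 inhibitor p19, was the one gene of the set that met the lower call in Flvcr-deleted and in EPO-treated cells both over all cells and at 1000 to 2000 detected genes. With its other row, tried over all cells only, the Flvcr-deleted call was kept and the EPO-treated call was lost. Detection was in 32 of 42 wild-type cells (76.2%, 60.5% to 87.9%), 9 of 30 Flvcr-deleted cells (30.0%, 14.7% to 49.4%) and 12 of 24 EPO-treated cells (50%, 29.1% to 70.9%). Wild-type RPKM ran from 0 over a median of 51.0 to 807, Flvcr-deleted RPKM from 0 over 0 to 166, and EPO-treated RPKM from 0 over 1.76 to 133. In wild-type cells it went against the number of detected genes, with a Spearman's rho of -0.75, where those of Flvcr-deleted and EPO-treated cells were -0.13 and 0.16. Wild-type cells with 1000 to 2000 detected genes held it in 17 of 18 cells (94.4%, 72.7% to 99.9%) at a mean log2 level of 6.79 ± 2.72, and those with more in 15 of 24 at 3.25. At 1000 to 2000 detected genes 6 of 12 Flvcr-deleted cells held it (50%, 21.1% to 78.9%) at 2.47 ± 2.81, and 6 of 12 EPO-treated cells at 2.59 ± 2.84. The Flvcr-deleted interval overlapped that of the wild type.

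There the difference of Flvcr-deleted from wild-type cells was -4.54 (-5.56, -5.91 and -2.14 in classes B, C and D), and -4.81 in the range from 700 to 2500. Of all filtered genes 19.1% were lower and 16% higher by the same rule at 1000 to 2000 detected genes, and the median gene differed by -0.09. Cdkn2d was the 1 of 7 genes called there. For EPO-treated cells the difference was -3.82, with 14% of genes lower and 7.99% higher, again the 1 gene of 7 called and with the limit on its rows given above. Leaving out any 1 of the 3 classes gave -3.85 to -5.74 in Flvcr-deleted cells and -2.32 to -5.35 in EPO-treated cells, whose class D difference was -0.75.

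**Figure D4:**
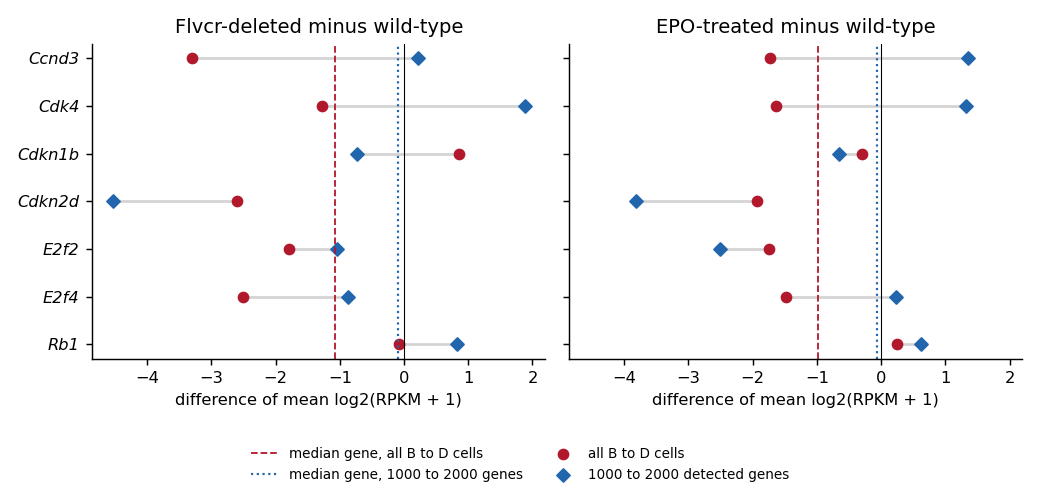
Class-averaged differences of mean log2(RPKM + 1) for the 7 genes above the level filter, Flvcr-deleted minus wild-type (left) and EPO-treated minus wild-type (right), over all class B to D cells (circles) and over cells with 1000 to 2000 detected genes (diamonds); vertical lines mark the median of 2540 genes in each. Ccnd3 and Cdk4 move from below 0 to above it in both panels, and Cdkn2d moves further below 0, to -4.54 and -3.82.

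Cdkn2c, which encodes p18, was detected in 12 of 42 wild-type cells of classes B to D (28.6%, 15.7% to 44.6%), at up to 46.0 RPKM. It was found in 1 of 30 Flvcr-deleted cells (3.33%, 0.0844% to 17.2%) and in 1 of 24 EPO-treated cells (4.17%, 0.105% to 21.1%). In the range of 1000 to 2000 detected genes the counts were 3 of 18 in the wild type, 1 of 12 after Flvcr deletion and 0 of 12 after EPO, and their intervals overlapped.

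E2f2 had like means in wild-type classes B to D, which differed more in the other groups; wild-type class A was far lower, at 0.78 ± 1.32. Its mean log2 level was 5.36 ± 2.18, 5.30 ± 1.73 and 5.53 ± 2.13 in wild-type classes B, C and D, with 39 of 42 cells positive. In Flvcr-deleted cells it was 2.24 ± 2.42 in class B, 2.60 ± 2.34 in class C and 5.99 ± 1.37 in class D, where the 5 cells had 99.0, 11.0, 129, 81.2 and 80.1 RPKM. In EPO-treated cells the levels were 2.84 ± 2.26, 6.09 ± 2.64 and 2.03 ± 0.40, and the 4 class D cells had 5.04, 2.14, 2.86 and 2.77 RPKM. Every Flvcr-deleted class D cell thus lay above every EPO-treated class D cell, and 4 of the 5 lay above the wild-type class D median of 32.6. Differences from wild-type by class were -3.12, -2.70 and 0.46 in Flvcr-deleted and -2.52, 0.79 and -3.50 in EPO-treated cells. E2f2 showed no steady rise or fall with detected genes, its Spearman's rho lying between -0.10 and -0.06 in the 3 groups. In Flvcr-deleted cells, though, its mean log2 level was 2.27 under 1000 detected genes, 4.78 at 1000 to 2000 and 0.97 above. At 1000 to 2000 detected genes its difference from wild-type was -1.05 in Flvcr-deleted and -2.50 in EPO-treated cells. Neither was called, since the classes did not share a sign.

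E2f4, a factor that mainly works as a repressor with the RB relatives, was detected in 39 of 42 wild-type, 17 of 30 Flvcr-deleted and 19 of 24 EPO-treated cells. Wild-type RPKM ran from 0 over a median of 56.5 to 316, Flvcr-deleted RPKM from 0 over 3.93 to 342, and EPO-treated RPKM from 0 over 15.7 to 349. The groups overlapped. By class B, C and D the Flvcr-deleted counts were 12 of 16, 3 of 9 and 2 of 5, and the wild-type counts 9 of 10, 17 of 19 and 13 of 13. At 1000 to 2000 detected genes E2f4 stood at -0.87 from wild-type in Flvcr-deleted and 0.23 in EPO-treated cells, neither of them called. Between Flvcr-deleted and EPO-treated cells it was there the 1 gene of 7 called lower, at -1.10, where 7.64% of all filtered genes were lower and 9.92% higher. Rb1, the pocket protein gene itself, was low everywhere, with detection in 18 of 42 wild-type, 11 of 30 Flvcr-deleted and 7 of 24 EPO-treated cells and differences from wild-type of -0.08 and 0.24. Its highest RPKM were 79.7, 47.5 and 109.

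**Figure D5:**
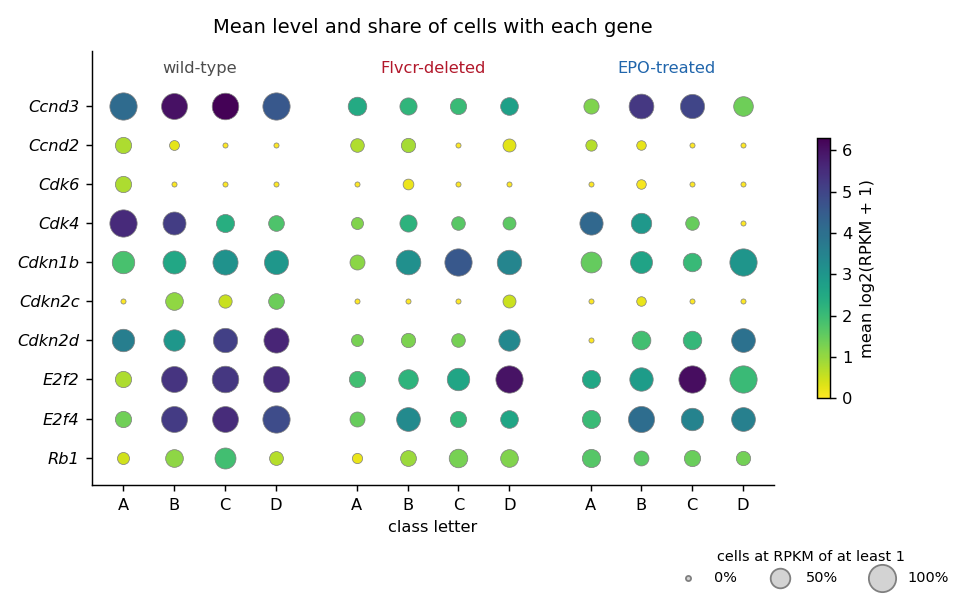
Mean log2(RPKM + 1) (colour) and share of cells at an RPKM of at least 1 (dot size) for the 10 genes in each of the 12 sets of group and class letter. Ccnd3, E2f2 and E2f4 are strong in wild-type classes B to D, Cdkn2d has a higher mean in class D than in class B in each group, and Ccnd2, Cdk6 and Cdkn2c are near 0 in most sets.

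Ter119 rises as erythroblasts mature. Over all cells, Ccnd3 and Cdk4 had lower means in class D than in class B in wild-type and EPO-treated cells, and Cdkn2d higher ones. The median filtered gene differed by -0.90 and -1.36 there, so most genes fell too. From class B to C wild-type Ccnd3 differed by 0.25 and Cdkn2d by 2.12. From class B to class D in wild-type cells the difference in mean log2 level was -3.41 for Cdk4, -1.43 for Ccnd3 and 2.68 for Cdkn2d. That is 2 of 7 genes lower and 1 higher by a size of at least 1, where 46.1% and 5.39% of all filtered genes were. In EPO-treated cells Ccnd3 stood at -3.89, Cdk4 at -2.93 and Cdkn2d at 2.04, again 2 of 7 and 1 of 7, against 58.3% and 10.9% of genes. In Flvcr-deleted cells no gene of the 7 was lower and 2 were higher, E2f2 by 3.75 and Cdkn2d by 2.12, against 30.6% and 13.5% of genes. Cdkn2d was the gene higher in class D in each group, with 3 of 5 Flvcr-deleted class D cells holding it at 69.6, 40.2 and 39.3 RPKM and 2 at 0. The 4 EPO-treated class D cells had 23.0, 0, 77 and 28.8 RPKM. Median detected genes went from 3033.5 in class B to 1891 in class D of wild-type cells and from 1771 to 1087.5 in EPO-treated cells, but only from 1235 to 1214 in Flvcr-deleted cells, and their part in these differences was not tested.

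Between classes A and B the erythroid character of wild-type cells changed as well, so these differences may not lie within 1 cell type. There E2f2 was higher in class B by 4.58, E2f4 by 3.83 and Ccnd3 by 1.90, 3 of 7 genes where 37.6% of all filtered genes were higher, and none was lower against 17.4%. In EPO-treated cells 4 of the 7 genes were higher in class B, Ccnd3 by 4.06, E2f4 by 2.05, Cdkn2d by 1.90 and Cdkn1b by 1.15, against 47.5% of all filtered genes, and Cdk4 was lower, at -1.25, against 8.7%. In Flvcr-deleted cells 3 were higher, Cdkn1b by 2.05, E2f4 by 1.85 and Cdk4 by 1.05, against 43.9%, and 0 were lower, against 0.787%. Ccnd2 and Cdk6 were each found in 2 of 6 wild-type class A cells. EPO-treated class A cells held Ccnd3 in 2 of 7 and Cdkn2d in 0 of 7. The Flvcr-deleted class A cells were 2 unlike sets by label suffix. The 9 cells of suffix a had 796 to 3069 detected genes, Ccnd3 was detected in 6 of them, and each held at least 1 of the 10 genes. The 9 cells of suffix d had 169 to 864 detected genes, Ccnd3 was detected in 2, and 5 held none of the 10 genes. Against suffix a alone, a split made after seeing the data, the class B differences were 0.95 for Cdkn1b, 0.38 for E2f4, -0.15 for Cdk4 and -1.87 for Ccnd3. The higher values of E2f4 and Cdk4 above thus rest on the suffix d cells, while Cdkn1b fell only just short of a size of 1.

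The wider G1 pathway was described by 41 other genes, of which 13 passed the level filter. In Flvcr-deleted against wild-type cells 8 were lower and 1 higher, where 48.3% and 3.74% of all filtered genes were, and the median difference was -1.36. Hdac1, a histone deacetylase that RB and E2F4 complexes recruit, differed by -3.59, and E2f8, a repressive E2F, by -3.35. Rbbp4, a histone-binding partner of RB, differed by -2.76, and the cyclin E2 gene Ccne2 by -2.47. The 1 higher gene was Btg1, an antiproliferative factor, at 1.59 and 0.38 in cells with 1000 to 2000 detected genes; it was singled out after its value was seen. In cells with 1000 to 2000 detected genes 3 of 13 were lower and 1 was higher, against 19.1% and 16% of all genes, and the median was -0.11. In EPO-treated cells 6 of 13 were lower, near the 42% of all genes, 0 were higher and the median was -1.66, led by Hdac1 (-2.96), Ccne2 (-2.71), Rbbp4 (-2.63) and E2f8 (-2.50), and 5 were lower at 1000 to 2000 detected genes, where 14% of all genes were.

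The next lists hold S phase genes that E2F factors switch on and genes of mitosis. Of 20 E2F targets 19 passed the filter, and in Flvcr-deleted cells 15 were lower (48.3% of all genes), 0 were higher and the median was -2.64, among them Tk1 (-4.08), Mcm3 (-3.84), Cdc6 (-3.74) and Rrm1 (-3.57). Among cells with 1000 to 2000 detected genes 4 of 19 were lower and 3 higher, close to the 19.1% and 16% of all genes, and the median was 0.46. Of 10 mitotic genes all passed and all 10 were lower, with a median of -3.25, among them Cdk1 (-4.16), Ccnb2 (-3.76), Ccnb1 (-3.62) and Top2a (-3.32). At 1000 to 2000 detected genes 8 were lower and 0 were higher, where 19.1% and 16% of all genes were, for a median of -2.58 where the median of all genes was -0.09. In EPO-treated cells 12 E2F targets (median -1.99) and 7 mitotic genes (median -1.56) were lower and none was higher, where 42% of all genes were lower. Those counts did not hold at 1000 to 2000 detected genes: 1 E2F target was lower and 2 were higher (median 0.43), and 0 mitotic genes were lower and 1 was higher (median -0.89), where 14% of all genes were lower and 7.99% higher.

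The filtered genes whose 12 set means went most closely with those of Ccnd3 were Zw10 (Pearson's r 0.95), Hmgb3 (0.92), Nudt9 (0.92), Stil (0.92) and Slbp (0.91), and 13 genes had an r of at least 0.9. On the 9 means of classes B to D alone these genes ranked 5, 48, 27, 44 and 23 in likeness to Ccnd3, with r of 0.90 to 0.95. The order thus depends on the class A sets. The set means share cells, chips and depth, and the Ccnd3 means had an r of 0.66 with the median detected genes of the sets. The nearest genes were Eif1ad (0.95) and Snrpa1 (0.95) for Cdk4, Azin1 (0.92) and Ppp1r15a (0.91) for Cdkn2d, Espl1 (0.91) and Racgap1 (0.89) for E2f2, and Add2 (0.94) for E2f4. For Cdkn1b they were Creg1 (0.86) and Ypel5 (0.83), and for Rb1, a gene seen in few cells, 1200014J11Rik (0.78) and Cd8b1 (0.74). None of these nearest genes came first on the 9 means of classes B to D, where Espl1 ranked 4 and Add2 76.

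Gata1, the erythroid transcription factor, was detected beside Ccnd3 in 39 of 42 wild-type cells, in 9 of 30 Flvcr-deleted cells and in 10 of 24 cells after EPO, all in classes B to D. Ccnd3 without Gata1 was seen in 8 EPO-treated, 2 Flvcr-deleted and 1 wild-type cells, and neither gene in 14 Flvcr-deleted, 3 EPO-treated and 0 wild-type cells.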

How the data were processed

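The unit is RPKM, made and deposited by the authors in 1 table of 34898 RefSeq transcript rows. TopHat2 2.0.9 and the build mm9 are named, per the submitters' processing notes; no counting tool is. Of several rows for a symbol, that with the highest mean RPKM was used. The table has 4 columns that match no sample, which were left out. No 2 cells had identical columns. All EPO-treated values had at most 2 decimals, unlike the others, so these cells might have been processed apart.

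Levels are log2(RPKM + 1), which understates changes of low genes. Filtered genes are those whose mean reached 1. With no animal named, no test was made. Shares have exact (Clopper-Pearson) 95% intervals. Read depth was estimated by taking the most frequent product of RPKM and transcript length as 1 read, with GENCODE vM21 lengths, which are of another build.

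The genes and lists were chosen with earlier results of these data known. Named were all 10 genes, the 5 genes most like Ccnd3 and the 2 most like each other filtered gene, and the 4 genes of each list with the largest difference; the text names part of these. Alternatives covered the pseudocount, means of RPKM, scaling, classes, weights, rows, filters, chip, likeness and detected genes; leaving out each cell, a call size of 2, the range from 700 to 2500 detected genes the other Cdkn2d row and the split of Flvcr-deleted class A cells by label suffix were added after seeing the data. The scripts were run with Python 3.11.15, numpy 2.4.6, pandas 2.3.3 and scipy 1.17.1. Only the calculation of group differences was tested, on resampled wild-type cells with known fold changes set in some genes.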

Additional observations from a re-analysis of the deposited data

How the results depend on the processing

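No paired analysis was possible because the cell numbers only name cells and the results come from no test. Leaving out each cell in turn gave Ccnd3 differences from wild-type of -3.77 to -3.08 in Flvcr-deleted and -1.95 to -1.52 in EPO-treated cells, and 3 to 4 and 4 to 4 genes called lower; for Flvcr-deleted minus EPO-treated cells it gave 0 to 1. In Flvcr-deleted cells Ccnd3 kept a negative difference from wild-type under every alternative except the restriction to 1000 to 2000 detected genes. In EPO-treated cells it did so under every alternative except both restrictions on detected genes. At 1000 to 2000 detected genes it was 0.22 in Flvcr-deleted and 1.35 in EPO-treated cells, Cdk4 was 1.88 and 1.33, E2f4 was 0.23 in EPO-treated cells, and 1 gene was called lower in each. At 700 to 2500 Ccnd3 was -0.96 in Flvcr-deleted and 0.40 in EPO-treated cells, Cdk4 1.04 and 0.87, and E2f4 0.19 in EPO-treated cells. There 1 and 2 genes were called lower and, in Flvcr-deleted cells, 1 higher (Cdk4). Fewer cells entered these fits; the cause was not tested.

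Of Flvcr-deleted minus wild-type cells, 1 gene (Cdkn1b) was called higher with a pseudocount of 0.1, as a log2 ratio of mean RPKM (2 lower, Cdkn2d and E2f2, so that the calls of Ccnd3, Cdk4 and E2f4 were lost), without class D, scaled to 1 sum without globins, and with the median difference subtracted. Of EPO-treated minus wild-type cells, the Ccnd3 call was lost without class D (-0.996), 2 were lower with a pseudocount of 10, 0 at a size of at least 2, and 0 lower and 1 higher (Rb1) with the median subtracted; as a ratio of mean RPKM 1 was higher. Scaling to 1 sum moved the lower share of all genes in Flvcr-deleted minus wild-type cells from 48.3% to 59.3%, and subtracting the median gave 17.4% lower and 16.5% higher.

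The Flvcr-deleted minus EPO-treated calls held least. Called lower were 2 genes with a pseudocount of 0.1, with summed rows and with the other Cdkn2d row, 3 without class D, and 0 with a pseudocount of 10, with class A, without class C, with the median subtracted, on chip SCP7 only, at 700 to 2500 detected genes and at a size of at least 2. Called higher were 0 with a pseudocount of 10, as a ratio of mean RPKM, with class A, without class C, with 1 sum, at 1000 to 2000 detected genes and at a size of at least 2. As a ratio of mean RPKM Ccnd3 was 0.60 and E2f4 0.10, and at 1000 to 2000 detected genes Cdkn1b was -0.079. From class B to D, 4 genes changed by a size of at least 1 in Flvcr-deleted cells with a pseudocount of 0.1 and 1 with a pseudocount of 10, and 5 in EPO-treated cells with 1 sum.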
